A study of Mus musculus with 5 samples.

Results

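The Hox genes of the mouse were followed by cluster, by position within the cluster and by body site in 5 single-cell libraries. Every feature named Hoxa, Hoxb, Hoxc or Hoxd with a paralogue number was taken, and opposite-strand transcripts were left out. This gave 39 genes of 28001 features, with 11 in the HoxA cluster on chromosome 6, 10 in HoxB on chromosome 11, 9 in HoxC on chromosome 15 and 9 in HoxD on chromosome 2. All 39 had a UMI (unique molecular identifier, the tag that marks 1 captured RNA molecule) in at least 1 of the sums compared. The libraries were tdTomato-positive cells sorted from C57BL/6J mice, and every animal carried the tamoxifen-activated Cre recombinase at both copies of Hic1, a gene of mesenchymal progenitors (Hic1CreERT2/CreERT2). The muscle library came from resting hindlimb muscle with 1 copy of the Cre-switched reporter (Rosa26LSLtdTomato/+). The 4 sarcoma libraries came from tumours of the shoulder, head, head/ear and hip with 2 copies of the reporter and floxed Smarcb1 alleles (Rosa26LSLtdTomato/LSLtdTomato;Smarcb1FL/FL), so that Cre can remove this subunit of the SWI/SNF chromatin remodeller. All animals were 8 weeks old when they received 2.5 mg of tamoxifen in 100 µL of sunflower oil on 5 days, followed by a 10 day washout. The labels describe the sarcoma cells as taken at endpoint and the muscle as quiescent. They do not give the time from tamoxifen to collection or the age at collection. Cre acts only in cells that have switched on Hic1, and the sort kept only cells in which it had acted. Body site, genotype, reporter copies, tumour state and possibly age at collection differ together between muscle and sarcomas. Each site is 1 tumour, so site and tumour cannot be told apart.

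Hox genes encode homeodomain transcription factors. In vertebrates they sit in 4 clusters, and genes of low paralogue number at the 3′ end of a cluster are switched on earlier and closer to the head than genes of high number at the 5′ end, so that the set of active Hox genes marks a position along the trunk and, for the posterior HoxA and HoxD genes, along the limb. Fibroblasts of adult tissues keep much of the Hox pattern of their place of origin, while the mesenchyme of face and jaw is largely free of Hox expression in the embryo.

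Cells in which 500 or more genes were found, and whose mitochondrial share did not exceed 10%, numbered 8107 from muscle and 7433, 8206, 6949 and 6824 from the shoulder, head, head/ear and hip tumours. From here on, 4 values in a row stand for the tumours in this order. Sarcoma cells were those with at least 2 UMIs of Gchfr and none of Smarcb1 (5142, 7423, 2851 and 3265 cells). Stroma was taken as cells with at least 4 UMIs over Ddah1, Wisp1, C1qtnf7 and Fbn2 (184, 156, 1732 and 79 cells), and cells that met both rules were left out. No muscle cell met the sarcoma rule. Levels are CPM, the UMIs of a gene per 1000000 UMIs of all cells of a class. The kit counts 1 tag at the 3′ end of each molecule, so levels were not divided by gene length. Sums held between 2872119 and 196924310 UMIs. A gene with 0 UMIs may lie at up to 0.0474 CPM in muscle, 0.0205, 0.0152, 0.0422 and 0.0275 CPM in sarcoma cells and 0.709, 0.702, 0.0750 and 1.04 CPM in stroma, taking 3 UMIs as the limit a count of 0 allows. Pairs of libraries shared 12 to 22 cell barcodes.

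The stroma of the hip tumour stood apart. Only 13 of its 79 cells held a Smarcb1 UMI, and Smarcb1 was at 9.75 CPM against 45.1 to 66.4 CPM in the stroma of the other tumours. The summed fibroblast markers reached 2085 CPM there and 19219, 26467 and 30905 CPM in the others, and the senescence gene Cdkn2a was at 109 CPM beside 115 CPM in the sarcoma cells of the same tumour. In these markers the cells taken by the stroma rule at the hip lay nearer to its sarcoma cells (fibroblast markers 751 CPM) than to the stroma of the other tumours, and results on stroma are given with and without this tumour where they change. In the muscle, the stroma rule took 175 cells with high tenocyte markers (15541 CPM, against 1767 CPM in the whole library), so all kept muscle cells were used for comparison.

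Each library carried a Hox pattern of its own. Summed over the 39 genes, the level was 391 CPM in muscle, 392.2, 417, 245 and 1886 CPM in sarcoma cells and 371, 196, 121 and 1819.9 CPM in stroma. The hip tumour was the highest by far in both classes, and the other values lay within a range that included the muscle. Muscle was led by HoxC and HoxA, with 216 and 134 CPM, while HoxD gave 23.6 CPM and HoxB 16.2 CPM. Shoulder sarcoma cells were led by HoxC (205 CPM) and HoxB (132 CPM), with HoxD at 46.6 CPM and HoxA at 8.06 CPM. Head sarcoma cells drew 72.2% of their Hox UMIs from HoxD (301 CPM) and 1.56% from HoxC. Head/ear sarcoma cells were led by HoxC (149 CPM) and HoxB (69.0 CPM), and the whole HoxA cluster gave 15 UMIs among 71009915, which is 0.211 CPM. Hip sarcoma cells were led by HoxC with 1170.0 CPM and HoxB with 556 CPM.

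**Figure D1:**
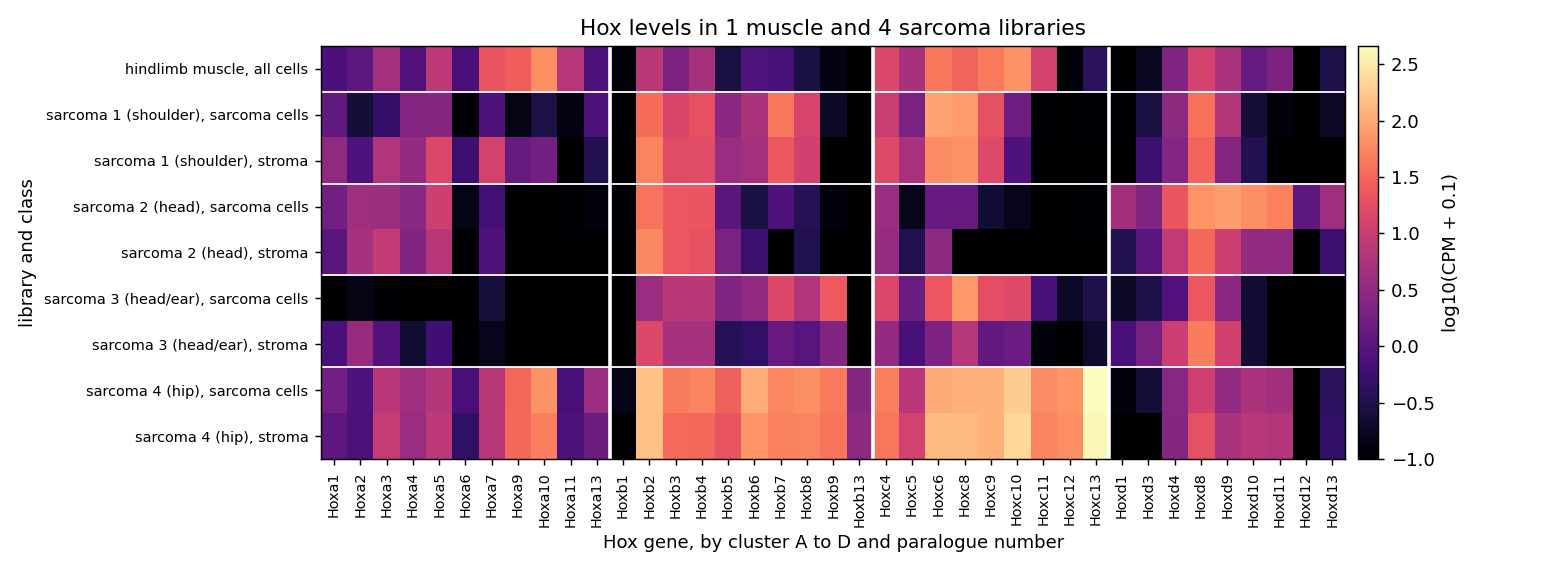
Level of each of the 39 Hox genes as log10(CPM + 0.1), with genes in columns from cluster A to D by paralogue number and the 9 sums in rows (all muscle cells, and sarcoma cells and stroma of each tumour). The lightest colour is that of Hoxc13 in the hip tumour (459 CPM in sarcoma cells), and Hoxd8 to Hoxd11 are light in the sarcoma cells of the head tumour.

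**Figure D2:**
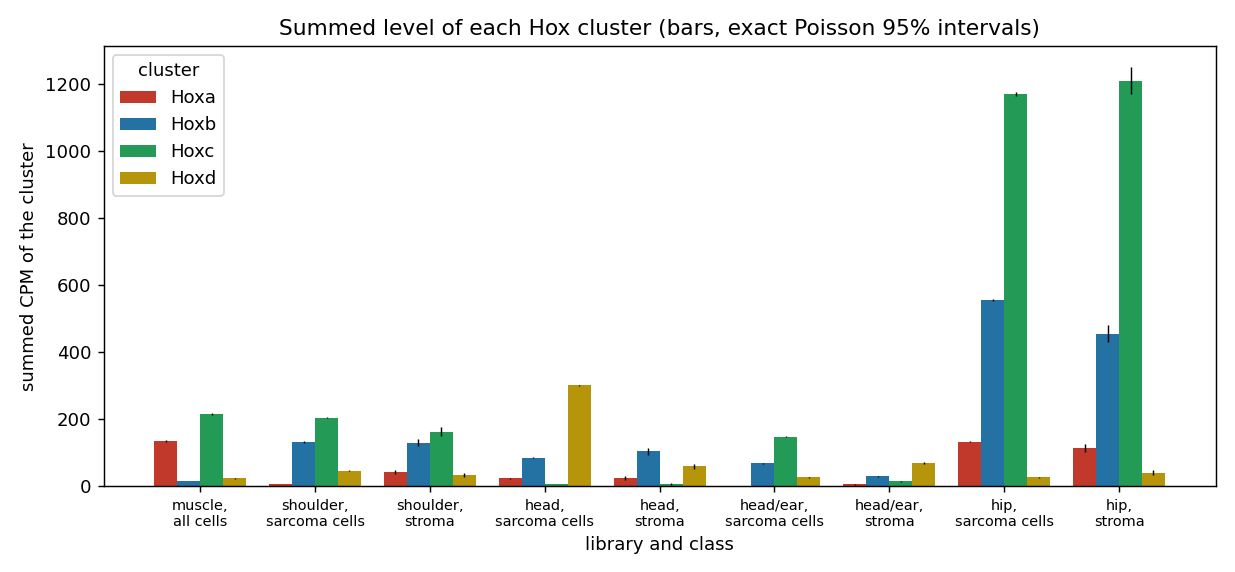
Summed CPM of each cluster (bars) in the 9 sums, with exact Poisson 95% intervals that cover counting error only. HoxC reaches 1170.0 CPM in hip sarcoma cells, and HoxD leads only in the head tumour's sarcoma cells (301 CPM) and in head/ear stroma (70.6 CPM).

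Among the 38 Hox genes tested between sarcoma cells and muscle, 21 (55.3%) had a level in the highest tumour at least 10 times that in the lowest after 1 CPM was added to each, a rule chosen after the data were seen. Of all 17747 genes tested, 7.75% met the same rule. Without the hip tumour 12 Hox genes met it (3.45% of all genes), without the head tumour 9 (6.62%), without the shoulder tumour 21 (6.01%) and without the head/ear tumour 18 (5.96%). The genes that met it belonged to every cluster, and 8 of the 9 HoxC genes were among them, of which Hoxc6, Hoxc8, Hoxc9 and Hoxc10 met it also without the hip tumour. The mean over the 4 tumours was 735 ± 771 CPM (SD, n = 4) in sarcoma cells and 627 ± 802 CPM (SD, n = 4) in stroma, so the spread between tumours was as large as the mean. The 24 genes that reached 20 CPM in at least 1 of the 9 sums are given in full, and the highest level of the 15 others ranged from 0.0458 CPM for Hoxb1 to 14.4 CPM for Hoxa5.

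In the HoxA cluster the central and posterior genes separated the libraries. Hoxa10, which patterns the lumbar spine and the uterus, measured 63.7 CPM in muscle, 0.191, 0, 0 and 69.0 CPM in sarcoma cells and 1.65, 0, 0 and 48.7 CPM in stroma. Hoxa9, a partner of Meis1 in leukaemia, measured 26.5 CPM in muscle, 0.0409, 0, 0 and 31.3 CPM in sarcoma cells and 1.18, 0, 0 and 32.7 CPM in stroma. Both genes were thus at similar levels in hindlimb muscle and the hip tumour, near 0 in the shoulder tumour and without a single UMI in either head tumour. Hoxa7 measured 21.3 CPM in muscle, 0.689, 0.528, 0.155 and 7.42 CPM in sarcoma cells and 12.3, 0.702, 0.04997 and 6.96 CPM in stroma, so that it was low in shoulder sarcoma cells and high in the stroma around them. Hoxa5, known for its part in lung development, behaved alike at the shoulder, with 2.44 CPM in sarcoma cells and 14.4 CPM in stroma. The limb gene Hoxa11, which shapes the forearm and lower leg together with Hoxd11, was at 6.79 CPM in muscle and at 0.632 CPM or less in the sarcoma cells of every tumour. Hoxa2, which sets the identity of the second pharyngeal arch and the outer ear, had 4.17 CPM in head sarcoma cells and 4.91 CPM in head stroma, but 0.0422 CPM in head/ear sarcoma cells beside 3.598 CPM in their stroma. Reads of Hoxa2 may be shared with Gm28308, an annotated gene that overlaps its 3′ end on the same strand.

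In the HoxB cluster Hoxb2, Hoxb3 and Hoxb4 were present in every tumour, while Hoxb1 had 2 UMIs in head and 5 in hip sarcoma cells and none in the other tumour sums. Hoxb2, which acts in the hindbrain segment that forms the facial motor neurons, measured 7.49 CPM in muscle, 34.7, 38.8, 3.84 and 159.6 CPM in sarcoma cells and 52.2, 59.2, 15.3 and 151 CPM in stroma. Hoxb3 measured 2.02 CPM in muscle, 13.8, 22.3, 7.41 and 44.2 CPM in sarcoma cells and 16.8, 22.7, 4.82 and 33.8 CPM in stroma. Hoxb4, known for expanding blood stem cells when overexpressed, measured 4.93 CPM in muscle, 19.9, 22.0, 7.45 and 52.6 CPM in sarcoma cells and 17.3, 19.9, 5.05 and 31.7 CPM in stroma. Hoxb3 and Hoxb4 were above muscle in all 4 tumours in sarcoma cells, while Hoxb2 fell below muscle in head/ear sarcoma cells. Within the head/ear tumour, Hoxb2 ran opposite to its neighbours, with a ratio of sarcoma cells to stroma of 0.251 (95% interval 0.217 to 0.290) against 1.54 (1.30 to 1.82) for Hoxb3. Such intervals rest on the counts of 1 tumour and cover counting error only. Of the 1732 head/ear stroma cells, 763 held no UMI of the vessel-wall genes Rgs5, Kcnj8 and Notch3. The part of the other cells in the Hoxb2 ratio was not tested.

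From Hoxb5 to Hoxb9 the levels differed widely between the tumours. Hoxb5 measured 0.174 CPM in muscle, 2.73, 0.919, 2.14 and 28.2 CPM in sarcoma cells and 3.78, 1.87, 0.2499 and 20.9 CPM in stroma. Hoxb6 measured 0.742 CPM in muscle, 5.37, 0.183, 3.06 and 105 CPM in sarcoma cells and 4.73, 0.468, 0.3498 and 71.4 CPM in stroma. Hoxb7 measured 0.6003 CPM in muscle, 42.5, 0.721, 14.9 and 56.8 CPM in sarcoma cells and 23.4, 0, 1.22 and 50.5 CPM in stroma. These central genes were highest at the hip in both classes, and in sarcoma cells they were lowest in the head tumour. Hoxb8, which marks myeloid progenitors and a lineage of microglia in the mouse, measured 0.174 CPM in muscle, 13.0, 0.264, 6.21 and 62.2 CPM in sarcoma cells and 11.6, 0.234, 0.875 and 52.2 CPM in stroma. Hoxb9, a gene of the thoracic region, measured 0.0316 CPM in muscle, 0.0886, 0.0203, 24.0 and 45.5 CPM in sarcoma cells and 0, 0, 2.25 and 41.1 CPM in stroma. Hoxb9 was the leading HoxB gene of head/ear sarcoma cells, although the shoulder tumour, whose Hoxb7 level was higher, barely expressed it. Hoxb13, the most posterior HoxB gene, had 2.50 CPM in hip sarcoma cells and 0 UMIs in muscle and in the sarcoma cells and stroma of the other tumours.

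The HoxC cluster led muscle, the shoulder and hip tumours and head/ear sarcoma cells, and was low in the head tumour (6.49 CPM in sarcoma cells) and in head/ear stroma (15.1 CPM). Hoxc4 measured 14.4 CPM in muscle, 9.89, 3.79, 14.2 and 48.5 CPM in sarcoma cells and 15.6, 3.51, 3.27 and 42.5 CPM in stroma. Hoxc6 measured 42.3 CPM in muscle, 93.4, 1.21, 22.1 and 103 CPM in sarcoma cells and 59.8, 2.81, 2.00 and 135 CPM in stroma. Hoxc8, a gene of the thoracic and brachial region, measured 30.3 CPM in muscle, 79.9, 1.25, 75.0 and 112 CPM in sarcoma cells and 66.4, 0, 6.65 and 139 CPM in stroma. Hoxc6 and Hoxc8 were the leading pair of the shoulder tumour, and Hoxc8 alone led in head/ear sarcoma cells. Hoxc9, which sets thoracic motor neuron identity, measured 44.2 CPM in muscle, 18.7, 0.127, 18.7 and 116 CPM in sarcoma cells and 15.6, 0, 1.10 and 116 CPM in stroma. Hoxc10, a gene of the lumbar and hindlimb level, measured 66.9 CPM in muscle, 1.49, 0.0508, 16.4 and 192 CPM in sarcoma cells and 0.709, 0, 1.37 and 236 CPM in stroma. The step between Hoxc9 and Hoxc10 was where the shoulder tumour stopped, since Hoxc9 was still at 18.7 CPM in its sarcoma cells.

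The 5′ end of HoxC marked the hip tumour. Hoxc11 measured 12.9 CPM in muscle, 0.00682, 0, 0.620 and 59.7 CPM in sarcoma cells and 0, 0, 0.0250 and 52.6 CPM in stroma. Hoxc12 measured 0.0158 CPM in muscle, 0, 0, 0.0845 and 72.0 CPM in sarcoma cells and 0, 0, 0 and 62.3 CPM in stroma. Hoxc13, required for hair and nail formation, measured 0.300 CPM in muscle, 0.00682, 0.0102, 0.225 and 459 CPM in sarcoma cells and 0, 0, 0.0999 and 416 CPM in stroma. Hoxc13 was therefore the highest of all Hox genes in any library, with 50141 UMIs in hip sarcoma cells (95% interval 455 to 463 CPM), yet hindlimb muscle, which shares Hoxa9, Hoxa10 and Hoxc10 with the hip tumour, held almost none of Hoxc12 and Hoxc13. After each cell was thinned to 5000 UMIs, a Hoxc13 UMI was found in 68.1% of 3204 hip sarcoma cells (exact interval 66.5 to 69.7%, and 88.5% without thinning), and in 0.142% of head/ear sarcoma cells. How far free Hoxc13 RNA within the hip library adds to this share was not tested. The share in hip stroma was 51.9% of 79 cells. Keratinocyte markers (Krt5, Krt14 and Krt15) summed to 18.2 CPM in hip sarcoma cells, to 1.04 CPM in hip stroma and to under 0.05 CPM in muscle and in both classes of the other tumours. In shoulder and head stroma this is a count of 0 UMIs, which allows up to 0.709 and 0.702 CPM. The part of these markers' cells in the Hoxc13 level was not tested. Hoxc13 was at 541 CPM in the 13 hip stroma cells with a Smarcb1 UMI.

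The HoxD cluster led the sarcoma cells of the head tumour, but not its stroma. Hoxd8 measured 12.6 CPM in muscle, 37.0, 72.2, 22.7 and 11.1 CPM in sarcoma cells and 28.8, 32.8, 46.3 and 19.1 CPM in stroma, and was the only HoxD gene above 10 CPM in every sum. Hoxd4, a gene of the hindbrain and neck vertebrae, measured 2.12 CPM in muscle, 2.80, 21.4, 0.760 and 2.55 CPM in sarcoma cells and 2.36, 8.66, 10.3 and 2.44 CPM in stroma. Its 3′ end overlaps Gm28230 on the same strand, so its reads may be shared. Hoxd9 measured 5.42 CPM in muscle, 6.33, 82.6, 2.76 and 3.18 CPM in sarcoma cells and 2.36, 10.997, 11.4 and 5.22 CPM in stroma. Hoxd10, which acts in hindlimb motor neurons, measured 1.17 CPM in muscle, 0.136, 63.9, 0.127 and 5.29 CPM in sarcoma cells and 0.236, 3.28, 0.125 and 7.31 CPM in stroma. Hoxd11, which shapes the forearm together with Hoxa11, measured 2.01 CPM in muscle, 0.0205, 49.4, 0 and 4.45 CPM in sarcoma cells and 0, 3.04, 0 and 6.27 CPM in stroma. Head sarcoma cells were far above every other sum for Hoxd9, Hoxd10 and Hoxd11, and the series faded beyond, with Hoxd12 at 1.02 CPM and the digit gene Hoxd13 at 4.06 CPM.

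The stretch of neighbouring genes that was high in head sarcoma cells runs from Hoxd8 to Hoxd11 on chromosome 2. The bases before each start site are shown because these 4 genes were high together there. They come from RefSeq on the plus strand of build GRCm38.p6, for Hoxd8 from chr2:74704365-74704614, for Hoxd9 from chr2:74697513-74697726, for Hoxd10 from chr2:74691641-74691890 and for the 2 starts of Hoxd11 from chr2:74679308-74679556 and chr2:74682073-74682322. Capitals mark TTTATG, a site of CDX and posterior HOX proteins, and TGATNNAT, a site bound jointly by PBX and HOX proteins, searched on both strands, and bases annotated as an exon of the gene were left out.
Hoxd8: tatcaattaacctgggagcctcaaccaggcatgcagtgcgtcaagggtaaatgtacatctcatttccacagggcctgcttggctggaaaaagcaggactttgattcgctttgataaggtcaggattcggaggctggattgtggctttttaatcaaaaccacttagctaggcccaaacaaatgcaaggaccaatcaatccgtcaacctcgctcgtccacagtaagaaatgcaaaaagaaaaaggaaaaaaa
Hoxd9: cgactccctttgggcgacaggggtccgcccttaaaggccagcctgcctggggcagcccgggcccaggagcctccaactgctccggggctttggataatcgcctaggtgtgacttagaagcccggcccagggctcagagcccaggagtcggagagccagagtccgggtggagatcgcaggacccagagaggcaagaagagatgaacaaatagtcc
Hoxd10: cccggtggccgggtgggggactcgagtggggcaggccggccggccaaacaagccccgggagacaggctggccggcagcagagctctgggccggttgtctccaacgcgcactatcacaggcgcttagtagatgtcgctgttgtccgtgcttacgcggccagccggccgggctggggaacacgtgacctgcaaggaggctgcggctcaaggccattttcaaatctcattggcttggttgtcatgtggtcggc
Hoxd11, first start: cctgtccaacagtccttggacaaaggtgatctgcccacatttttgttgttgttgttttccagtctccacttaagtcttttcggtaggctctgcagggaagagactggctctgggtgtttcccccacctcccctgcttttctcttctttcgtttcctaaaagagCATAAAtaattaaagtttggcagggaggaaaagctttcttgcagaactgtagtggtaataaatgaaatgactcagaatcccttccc
Hoxd11, second start: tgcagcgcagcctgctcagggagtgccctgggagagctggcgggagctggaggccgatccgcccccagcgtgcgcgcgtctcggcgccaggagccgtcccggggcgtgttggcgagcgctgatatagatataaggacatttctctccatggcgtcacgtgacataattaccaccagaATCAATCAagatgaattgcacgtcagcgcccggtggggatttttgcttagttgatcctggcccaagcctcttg

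Only the Hoxd11 sequences held a match, TTTATG (read as CATAAA) before the first start and TGATNNAT (read as ATCAATCA) before the second, and the 2 matches did not overlap. Of the 39 Hox genes, 22 had 24 start sites in the RefSeq table. In the 250 bases before the start, TTTATG was found at 5 of the 24 Hox starts (20.8%) and at 10.8% of 32851 starts of all genes, and TGATNNAT at 4 of 24 (16.7%) and at 7.68%. A match is a description of letters and not a bound site. Cdx4, an activator of central and posterior Hox genes in the embryo, was chosen for mention after its values were seen. It was at 27.9 CPM in head sarcoma cells (5502 UMIs), 0.234 CPM in head stroma (1 UMI) and 0.245 CPM in shoulder sarcoma cells, and had no UMI in muscle, in shoulder stroma or in either class of the head/ear and hip tumours. Its fitted difference between sarcoma cells and stroma over the 4 tumours did not pass the threshold (log2 6.82, SE 0.74, adjusted p 0.0725 by edgeR's quasi-likelihood test).

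The paired comparison asked whether sarcoma cells carry another Hox pattern than the stroma of the same tumour. With edgeR's quasi-likelihood test and the tumour as a block, 0 of 37 Hox genes tested passed an adjusted p of 0.05 and 1 (Hoxb4) had an unadjusted p below it, while 272 of all 16330 genes passed (1.67%). DESeq2 called 1 Hox gene, Hoxa3, as lower (log2 -2.57, SE 0.92, adjusted p 0.0316), where 12.9% of all genes were called as lower. The median log2 difference was 0.40 for the Hox genes and 0.10 for all genes. Sarcoma cells were above stroma in all 4 tumours for 5 Hox genes (Hoxb4, Hoxb7, Hoxb8, Hoxb9 and Hoxc13), 13.5% beside 17.9% of all genes, and below it in all 4 for Hoxa3 (2.70% beside 14.5%), so neither share exceeded that of all genes. For Hoxc13 this order rests on 1 UMI at the shoulder and 2 at the head. For Hoxb9 it rests on 13 and 4, with none in stroma for either gene. The stroma limits of 0.709 and 0.702 CPM lie above these levels, so sarcoma cells were not shown to be above stroma there. The interval of the ratio of sarcoma cells to stroma included 1 for Hoxb4 at the shoulder (0.916 to 1.48) and head (0.893 to 1.39). It also did for Hoxb8 at the shoulder (0.848 to 1.53) and head (0.194 to 45.4), and for Hoxa3 at the hip (0.543 to 1.23). Hoxb7 in the head tumour was at 0.721 CPM with 0 UMIs in stroma, close to its limit. Its hip interval was 0.953 to 1.33. The order in all 4 tumours was therefore not shown for any of these genes. Without the hip tumour edgeR called Hoxb9 (log2 3.33, SE 0.45, adjusted p 0.0323) and Hoxd11 (log2 4.05, SE 0.38, adjusted p 0.0316) as higher in sarcoma cells, 2 of 30 Hox genes where 3.92% of all genes were called as higher. The Hoxb9 call rests on the head/ear tumour, since sarcoma cells were not shown to be above stroma at the shoulder and head. The Hoxd11 call rests on the head tumour, since Hoxd11 had 3 UMIs in shoulder sarcoma cells, none in their stroma and none in either class of the head/ear tumour.

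The 4 tumours differed in kind. At the hip the 2 classes were nearly equal, with a ratio of the summed Hox level of 1.04 and of Hoxc13 of 1.11 (95% interval 1.04 to 1.17), beside the resemblance of the 2 classes noted above. At the shoulder the summed ratio was 1.06, Hoxc6 stood at 1.56 (1.38 to 1.77) and Hoxb7 at 1.82 (1.49 to 2.24), and Hoxa7 was lower in sarcoma cells with 0.0560 (0.0397 to 0.0799). In the head tumour the summed ratio was 2.13. Hoxd8 stood there at 2.20 (1.87 to 2.62), Hoxd9 at 7.51 (5.65 to 10.2), Hoxd10 at 19.5 (11.6 to 35.7) and Hoxd11 at 16.3 (9.5 to 30.5), so that the ratio was larger for the 3 posterior genes than for Hoxd8, while Hoxb3 stood at 0.985 (0.805 to 1.22). In the head/ear tumour the summed ratio was 2.01. Hoxc8 stood at 11.3 (9.98 to 12.8), Hoxc9 at 17.0 (12.6 to 23.5), Hoxb7 at 12.2 (9.12 to 16.5) and Hoxb9 at 10.7 (8.64 to 13.4), whereas Hoxd8 was lower in sarcoma cells at 0.490 (0.458 to 0.524), Hoxd9 at 0.241 (0.203 to 0.286) and Hoxd4 at 0.0737 (0.0544 to 0.0980). In this tumour Hoxc8, Hoxc9, Hoxb7 and Hoxb9 were thus higher in sarcoma cells and Hoxd4, Hoxd8 and Hoxd9 higher in stroma, although Hoxd8 was among the higher Hox genes of both.

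Stroma cells may also hold free RNA of sarcoma cells. Among genes of at least 100 CPM in sarcoma cells, leaving out those used by the rules, the lowest level in stroma was 1.55%, 3.25%, 1.58% and 16.3% of that in sarcoma cells. In head stroma Hoxd10 was at 5.13% and Hoxd11 at 6.15% of their sarcoma cell levels, and in head/ear stroma Hoxc8 was at 8.86% and Hoxb9 at 9.36%. These levels rest on 14 UMIs of Hoxd10 and 13 of Hoxd11. The part of such RNA in these levels was not tested, and fewer cells and less RNA per cell cannot be told apart in a sum.

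**Figure D3:**
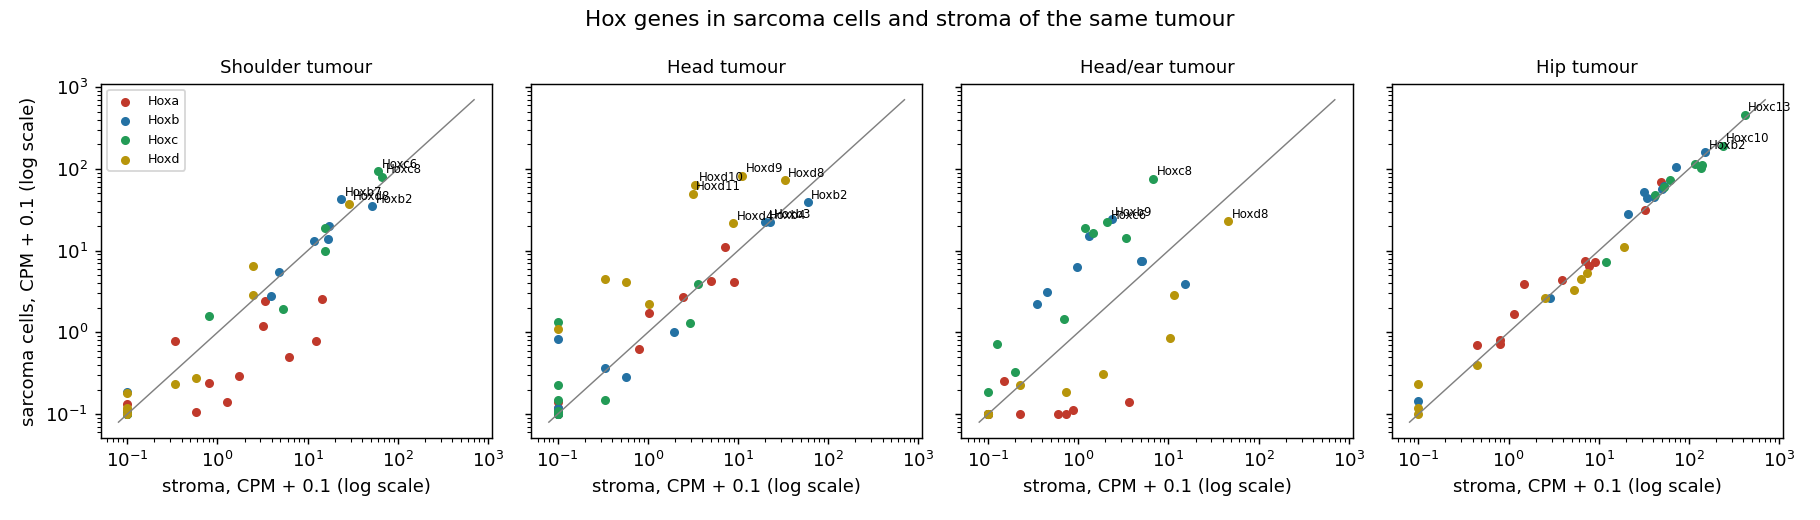
Each Hox gene (point, coloured by cluster) by its level in stroma and in sarcoma cells of the same tumour, in CPM + 0.1 on log scales, with the line of equal levels and names for genes of at least 20 CPM (150 CPM at the hip). Points follow the line at the hip, Hoxd8 to Hoxd11 lie above it in the head tumour, and Hoxc8 lies above and Hoxd8 below it in the head/ear tumour.

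Against muscle, 0 of 38 Hox genes passed in sarcoma cells, 1 (Hoxb3) at an unadjusted p below 0.05, and 0 of all 17747 genes passed (0.0%) with 2326 below 0.05 unadjusted. Muscle is a single library, and no test can show more than its distance from the spread of the tumours. DESeq2 called 1868 genes, among them 5 Hox genes as higher (Hoxb3, Hoxb5, Hoxb7, Hoxb8 and Hoxb9) of the 26 it tested, beside 5.13% of all genes called as higher. Sarcoma cells of all 4 tumours were above muscle for 7 Hox genes (18.4%, beside 20.3% of all genes), which were Hoxb3, Hoxb4, Hoxb5, Hoxb7, Hoxb8, Hoxd1 and Hoxd3. Hoxd1 had no UMI in muscle and 2 UMIs each in shoulder and hip sarcoma cells, below the muscle limit of 0.0474 CPM, and was not shown to be above muscle there. All 4 were below muscle for Hoxa6, Hoxa7 and Hoxa11 (7.89%, beside 31.9% of all genes). Hoxa6 was at 0.596 CPM in its highest tumour and 0.632 CPM in muscle, and Hoxd3 at 0.137 CPM in its lowest tumour and 0.0790 CPM in muscle. These levels are low and close, so neither order was shown there. In stroma 0 of 31 Hox genes passed by edgeR, 2 (Hoxa11 and Hoxb3) at an unadjusted p below 0.05, and 0 of 12855 genes in all (0.0%), with 1221 below 0.05 unadjusted. DESeq2 called 584 genes, with Hoxb3 as the only Hox gene (log2 3.38, SE 1.08, adjusted p 0.0453), beside 2.52% of all genes called as higher. Without the hip tumour edgeR called Hoxc10 (log2 -6.06, SE 0.73, adjusted p 0.0396) and Hoxc11 (log2 -8.98, SE 0.77, adjusted p 0.0239) as lower in stroma than in muscle, 2 of 34 Hox genes beside 0.673% of all genes called as lower.

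The head and head/ear tumours were then set against the shoulder and hip tumours. In stroma 0 of 22 Hox genes passed by edgeR and 13 had an unadjusted p below 0.05 (10 lower and 3 higher in the head tumours), against 0 (0.0%) and 326 of 11345 genes, and the median log2 difference was -1.77 for the Hox genes and 0.00 for all. Hoxc6 had the lowest unadjusted p among them (log2 -5.37, SE 0.59, adjusted p 0.958), with 59.8 and 135 CPM in shoulder and hip stroma and 2.81 and 2.00 CPM in the stroma of the head tumours. DESeq2 called 82 genes, and the 11 Hox genes among them (Hoxa7, Hoxa9, Hoxa10, Hoxb6, Hoxb7, Hoxb8, Hoxc4, Hoxc5, Hoxc6, Hoxc9 and Hoxc12) had lower fitted levels in the head tumours, beside 0.56% of all genes called as lower. For Hoxc12 this is the hip tumour alone, since it had no UMI in shoulder stroma. When the hip tumour was left out, the shoulder was the only tumour on its side. The median log2 difference in stroma by edgeR was then -2.09 for the Hox genes and 0.04 for all genes. Without the shoulder tumour, which leaves the hip as the only tumour on its side and assumes that it varies like the others, edgeR called 14 of 29 Hox genes, all lower in the head tumours than at the hip, beside 3.29% of all genes called as lower. In sarcoma cells 0 of 33 Hox genes passed by edgeR, 2 (Hoxa13 and Hoxd1) at an unadjusted p below 0.05, against 0 (0.0%) and 401 of 15663 genes. DESeq2 called 274 genes, 1.73% of those it tested, with lower fitted levels of Hoxa9, Hoxa10, Hoxa13, Hoxb13 and Hoxc13 and a higher one of Hoxd1 in the head tumours. For Hoxb13 and Hoxc13 this is the hip tumour alone, since shoulder sarcoma cells had 0 and 0.00682 CPM, no more than those of the head tumours. For Hoxa9 and Hoxa10 it is nearly the hip alone, with 31.3 and 69.0 CPM there and 0.0409 and 0.191 CPM at the shoulder. For Hoxd1 it is nearly the head tumour alone, since the highest level was 4.44 CPM and the mean over the 4 tumours 1.14 CPM. The difference between sarcoma cells and stroma was also compared between the sites, and 0 of 37 Hox genes passed by edgeR with 8 below 0.05 unadjusted, against 0 (0.0%) and 702 of 16330 genes. DESeq2 called 137 genes there, among them Hoxb7, Hoxc8 and Hoxc9 with a larger fitted excess in sarcoma cells on the side of the head tumours, beside 0.325% of all genes called in this direction. In the head tumour these 3 genes had no UMI in stroma and at most 1.25 CPM in sarcoma cells, so the larger excess was seen in the head/ear tumour.

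Single cells showed how far these patterns are shared from cell to cell. Thinned to 5000 UMIs, at least 1 Hox UMI was found in 80.8% of 5781 muscle cells and in 79.9%, 80.7%, 49.96% and 99.1% of sarcoma cells, which were 5031, 6562, 2812 and 3204 cells after 111, 861, 39 and 61 shallower ones were left out. The stroma gave 84.6%, 54.2%, 37.4% and 94.9% of 182, 155, 1725 and 79 cells. Without thinning the shares in sarcoma cells were 98.3%, 94.2%, 80.0% and 99.5%, so the head/ear tumour had the fewest Hox-positive sarcoma cells at either depth. The median hip sarcoma cell held UMIs of 6 Hox genes and the median head/ear sarcoma cell of 0. A HoxA UMI was found in 0.178% of head/ear sarcoma cells and in 42.7% of hip sarcoma cells.

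For each pair of Hox genes, the cells holding both were divided by the number their separate shares predict, where at least 5 were predicted. In sarcoma cells the median ratio for pairs of the same cluster was 1.33, 1.28, 2.84 and 1.17, and for pairs of different clusters 1.09, 1.06, 1.01 and 1.06. Every tumour thus had a higher median within clusters than between them, and the head/ear tumour had the highest. Same-cluster pairs above 1 numbered 29 of 30, 30 of 34, 18 of 18 and 70 of 83. The ratio of a pair cannot exceed 1 divided by the larger of its 2 shares, so widely detected genes leave it less room. Muscle gave 1.17 within and 0.975 between clusters. Cells of 1 library share depth and makeup, so these ratios are a description.

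**Figure D4:**
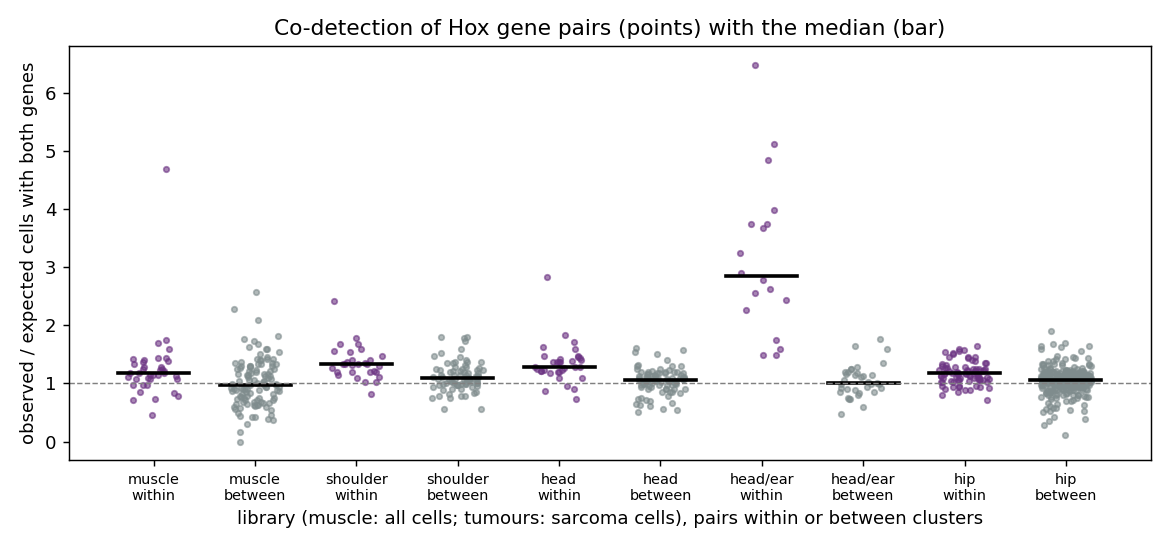
Observed over expected cells for each pair of Hox genes (points) with the median (bar), for pairs within 1 cluster and between clusters, in all muscle cells and in sarcoma cells of each tumour thinned to 5000 UMIs. The dashed line marks independence, and the head/ear pairs within clusters reach 6.48.

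The highest of these ratios in the head/ear tumour joined Hoxc9 and Hoxc10, found together in 59 sarcoma cells where 9.11 were predicted, a ratio of 6.48. Hoxc8 and Hoxc9 were found together in 145 sarcoma cells where 36.5 were predicted, a ratio of 3.97 (exact interval 3.37 to 4.65). Hoxc8 and Hoxc10 gave 3.74 (3.01 to 4.58), and Hoxc6 and Hoxc8 3.73 (3.15 to 4.39). Taken as whole clusters, HoxC was found in 24.4% of these cells where a Poisson distribution of the same mean would give 49.9%, and the variance of its UMIs per cell was 4.08 times the mean. The same ratio of variance to mean was 1.95 in shoulder, 1.60 in head and 2.63 in hip sarcoma cells and 1.31 in muscle. The means were 1.09, 0.0317, 0.692 and 5.90 HoxC UMIs per sarcoma cell and 1.07 in muscle. This ratio also depends on the mean, so it does not rank the libraries by how unevenly HoxC is spread. HoxB UMIs were found beside HoxC UMIs about as often as their shares predict, with a ratio of 1.07 (0.926 to 1.24), and HoxD beside HoxC with 1.17 (0.949 to 1.42). In muscle, HoxB and HoxD were found together in 10 cells where 29.9 were predicted, a ratio of 0.334 (0.160 to 0.615).

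**Figure D5:**
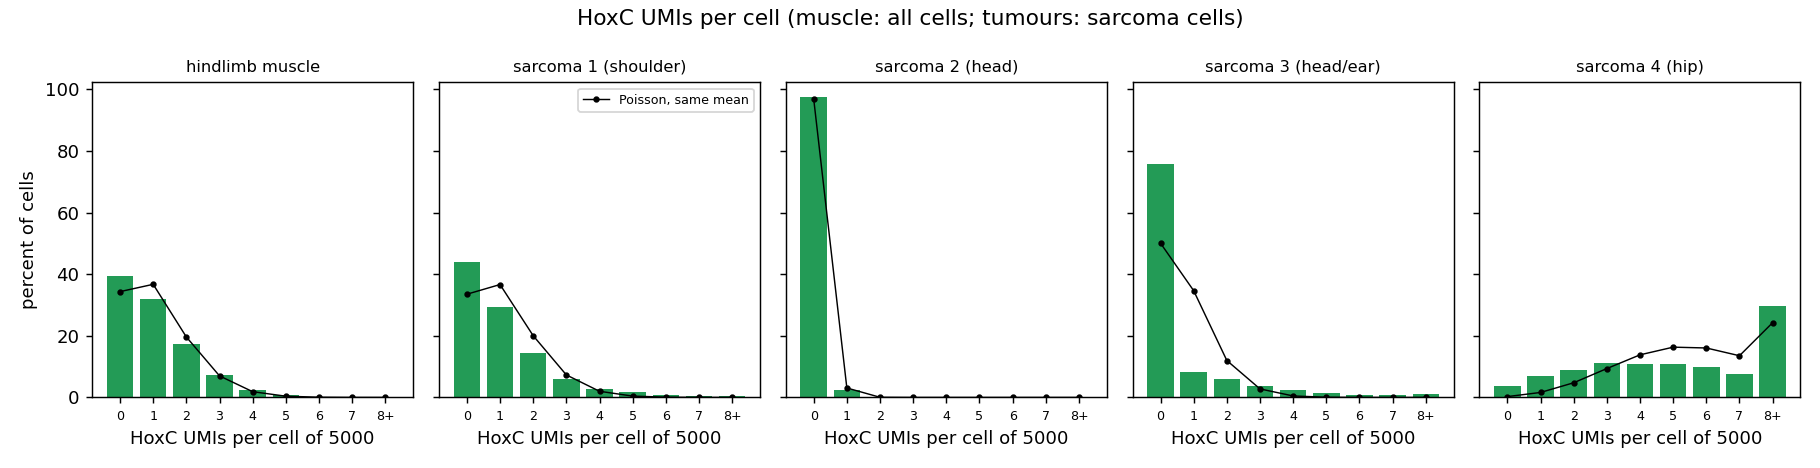
Percent of cells by number of HoxC UMIs per cell, thinned to 5000 UMIs, in all muscle cells and in sarcoma cells of each tumour (bars; the last bar holds 8 or more), with a Poisson distribution of the same mean (line). In the head/ear tumour the bar at 0 lies far above the line, with a tail of cells at 3 or more.

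A split made after the data were seen set 287 head/ear sarcoma cells with 3 or more HoxC UMIs beside 2126 with none, so their HoxC levels describe the choice only. Their median depths were 24256 and 23062 UMIs. Hoxc8 was at 407 CPM in the first and 9.41 CPM in the second, while Hoxb9 was at 25.0 and 23.7 CPM, Hoxb7 at 15.5 and 15.2 CPM and Hoxd8 at 24.6 and 22.0 CPM. Hoxb2 was at 5.77 and 3.42 CPM and Hoxb6 at 5.09 and 2.68 CPM, while Hoxb8 was at 6.19 and 6.29 CPM. The sarcoma marker Gchfr was at 572 and 711 CPM, Cdkn2a at 172 and 143 CPM, and Smarcb1 at 0 UMIs in both by the rule for sarcoma cells. Outside the Hox genes the largest excess was that of Ptn, a secreted growth factor, at 345 and 88.4 CPM, and the largest deficit that of Inmt, a methyltransferase, at 9.35 and 64.4 CPM. These cells come from 1 tumour, so no test was made.

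The cofactors and regulators of Hox genes were listed beside them. TALE homeodomain proteins of the Pbx and Meis families bind DNA together with HOX proteins. None of the 9 cofactors and none of the 12 regulators tested passed in the paired comparison, where 1.67% of all genes did. Meis2 measured 52.7 CPM in muscle, 88.4, 71.9, 193 and 18.6 CPM in sarcoma cells and 82.3, 125.6, 120.4 and 19.1 CPM in stroma, and was thus lowest in the tumour with the highest Hox level. Pbx3 measured 7.39 CPM in muscle, 51.0, 33.4, 83.2 and 44.0 CPM in sarcoma cells and 18.4, 10.1, 17.6 and 46.7 CPM in stroma. Meis1 measured 22.1 CPM in muscle, 33.9, 12.7, 107 and 13.7 CPM in sarcoma cells and 22.2, 30.2, 41.3 and 14.6 CPM in stroma. Of the regulators, the chromatin reader Psip1 ranged from 54.4 to 346 CPM over the 9 sums, and Kmt2a, the methyltransferase that maintains Hox expression, from 55.8 to 122 CPM. The retinoic acid enzyme Aldh1a2, which supplies the signal that opens anterior Hox genes, measured 282, 1.10, 11.7 and 0.357 CPM in sarcoma cells and 63.4, 106, 86.1 and 1.04 CPM in stroma, and the receptor Rarg ranged from 27.7 to 96.0 CPM.

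Genes that mark limb or head position were set beside the labels. The limb mesenchyme gene Prrx1 measured 247 CPM in muscle and 359.5 to 997 CPM in sarcoma cells, and Shox2 measured 73.0 CPM in muscle and 394 CPM in head sarcoma cells, its highest level. Tbx15 and Barx1, next by mean level, reached 102 CPM in head/ear and 119 CPM in shoulder sarcoma cells. Pitx1, which sets hindlimb identity, was chosen for mention after its values were seen. It was at 30.6 CPM in hip sarcoma cells and 7.11 CPM in muscle, and at 0.102 CPM or less in sarcoma cells of the other tumours. Dlx5 was the only gene of this list to pass a test, lower in sarcoma cells than in stroma (log2 -5.67, SE 0.63, adjusted p 0.0302 by edgeR). It was 1 of 13 listed genes tested in that comparison, where 212 of all 16330 genes were called as lower.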

How the data were processed

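Gene expression was measured by 10x Genomics 3′ single-cell RNA sequencing of sorted cells. Raw UMI counts per gene and barcode were deposited by the authors. Per the file headers they come from Cell Ranger 6.0.1, and the submitters' processing notes name the mm10 build. Doublet removal is not given in the sources used here. No doublet caller was run. UMI counts were summed per library and class and tested with edgeR 4.0.16 in R 4.3.3 (quasi-likelihood test, TMM scaling, filterByExpr, Benjamini-Hochberg adjustment at 0.05 over all genes). The paired fit has the tumour as a block, since both classes come from the same library, and their deviations correlated at 0.399 to 0.628. The fits of all groups pool the spread of the tumours. The fits were tested on simulated counts with genes changed by 2 or by 4 on the log2 scale. Those of sarcoma cells against muscle and of sites in sarcoma cells recovered no changed gene. At the smaller and the larger change, stroma against muscle recovered 0% and 11%, and sites in stroma 1% and 68%. The class difference by site recovered 10% and 61%, and the paired fit 48% and 78%. A count of 0 in any of these fits therefore does not show that levels are alike. DESeq2 1.42.0, other scaling, filters, gates and left-out tumours were the alternatives. Intervals are exact Poisson or exact binomial at 95% and cover counting error only. Sums and intervals were made in Python 3.11.15 (scipy 1.17.1), and figures in matplotlib 3.10.9. Positions and 3′ overlaps (last 1000 bases) were read from GENCODE M21 on GRCm38. Hox genes that reached 20 CPM in at least 1 sum are given in full, and of the other lists the 4 highest by mean level and any that passed a test. The values of 1 gene of these lists are not reported here. The genes, gates and lists were chosen with earlier results of these data known. Whether each sarcoma is from its own animal is not in the labels; the p-values therefore reflect the spread of these libraries alone, part of which may be technical.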

Additional observations from a re-analysis of the deposited data

Results flagged for a closer look

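Within groups of 4 tumours, 51 sets of values were examined for a tumour far from the other 3, and 25 had one. Apart from the summed levels, the sets were of genes chosen for reaching 20 CPM in at least 1 sum, which favours a high tumour. The rate of about 1 in 20 that the rule gives for unselected values is therefore no measure here. The sets are not independent, since neighbouring genes share a tumour. In 21 of them the hip tumour was the high one. In sarcoma cells these were Hoxa7 (7.42 CPM), Hoxa9 (31.3 CPM), Hoxa10 (69.0 CPM), Hoxb5 (28.2 CPM), Hoxb6 (105 CPM), Hoxc9 (116 CPM), Hoxc10 (192 CPM), Hoxc11 (59.7 CPM), Hoxc12 (72.0 CPM), Hoxc13 (459 CPM) and the summed Hox level (1886 CPM). In stroma these were Hoxa9 (32.7 CPM), Hoxa10 (48.7 CPM), Hoxb6 (71.4 CPM), Hoxb9 (41.1 CPM), Hoxc9 (116 CPM), Hoxc10 (236 CPM), Hoxc11 (52.6 CPM), Hoxc12 (62.3 CPM), Hoxc13 (416 CPM) and the summed Hox level (1819.9 CPM). In the other 4 sets the head tumour was the high one, all in sarcoma cells, with Hoxd4 (21.4 CPM), Hoxd9 (82.6 CPM), Hoxd10 (63.9 CPM) and Hoxd11 (49.4 CPM).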

How the results depend on the processing

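Between sarcoma cells and stroma of the same tumour, 0 Hox genes and 272 of all genes passed. DESeq2 gave 1 Hox gene and 3347 of all, a stroma rule of 8 UMIs gave 778 of all, stroma without mural UMIs 145 of all, and stroma with a Smarcb1 UMI, an alternative chosen after seeing the data, 1 Hox gene (Hoxb9) and 1360 of all. Without the replicate block 38 of all genes passed and 0 Hox genes. Leaving out 1 tumour gave 0 to 2 Hox genes and 0 to 1617 of all, with 0 without the shoulder or the head tumour, 9 without the head/ear tumour and 1617 without the hip tumour. Between stroma and muscle, DESeq2 gave 1 Hox gene and 584 of all, muscle cells in the stroma gate 2 of all, stroma with a Smarcb1 UMI 61 of all, and leaving out 1 tumour 0 to 2 Hox genes and 0 to 176 of all. DESeq2 gave 5 Hox genes and 1868 of all between sarcoma cells and muscle, 6 and 274 between sites in sarcoma cells, and 3 and 137 for the class difference by site. Between sites in stroma DESeq2 gave 11 Hox genes and 82 of all, no filter 12 and 91, and leaving out 1 tumour 0 to 14 and 0 to 1025. The cause was not tested.

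Over 24 Hox genes and 304 refitted differences between sarcoma cells and stroma, 281 kept their direction and side of the threshold, 3 newly passed it and 20 changed sign, none of which passed the threshold. Without the replicate block these were 0.61 for Hoxa10, -0.064 for Hoxc10, 0.24 for Hoxd4 and 0.19 for Hoxd8 on the log2 scale. DESeq2 gave -0.30 for Hoxc11 and -2.23 for Hoxc12, and stroma without mural UMIs gave -0.019 for Hoxc13. Leaving out 1 tumour gave ranges of -1.43 to 0.37 for Hoxa7, -1.46 to 0.020 for Hoxa9, -2.91 to 0.58 for Hoxa10, -0.20 to 0.96 for Hoxb5, -0.039 to 0.84 for Hoxc4, -0.16 to 1.19 for Hoxc6, -1.08 to 0.67 for Hoxd4, -0.47 to 0.34 for Hoxd8, -0.52 to 1.38 for Hoxd9, -0.34 to 2.52 for Hoxd10 and -0.28 to 4.05 for Hoxd11. The mean log2 ratio of the summed Hox level, 0.56, lay between 0.38 and 0.73 over its alternatives. Thinned to 2000 UMIs, the mean share of sarcoma cells with a Hox UMI was 57.1% in place of 77.4%, and the mean pair ratio within clusters 1.95 in place of 1.66. Depth limits stroma most, where the hip sum of 2872119 UMIs allows a gene with no UMI up to 1.04 CPM.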

Other observations

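Mural cells, which wrap small vessels, were taken by a rule chosen after the data were seen (at least 4 UMIs over Rgs5, Kcnj8 and Notch3, no Gchfr UMI and neither of the other rules). They numbered 772 in muscle and 164, 91, 248 and 31 in the shoulder, head, head/ear and hip tumours. Hoxb2 was at 35.2 CPM in those of muscle, beside 7.49 CPM in all muscle cells, and at 134, 150.3, 91.1 and 172 CPM in those of the tumours. In the shoulder, head and head/ear tumours this level was above those of sarcoma cells and stroma. At the hip it rests on 31 cells with 622391 UMIs in all, and sarcoma cells (159.6 CPM) and stroma (151 CPM) lay close to it. The order was therefore not shown at the hip. Hoxa7 was at 58.1 CPM in the mural cells of muscle and at 26.4 CPM in those of the shoulder tumour, where sarcoma cells had 0.689 CPM. Hoxd10 and Hoxd11, at 63.9 and 49.4 CPM in head sarcoma cells, were at 0.874 and 2.62 CPM in the mural cells of that tumour. Hoxc13 was at 81.9 CPM in the mural cells of the hip tumour and at 459 CPM in its sarcoma cells. No test was made of these differences.

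Cells that met neither the sarcoma nor the stroma rule, mural cells included, numbered 3389 in the hip tumour, more than its 3265 sarcoma cells. Their Hoxc13 level was 438 CPM and their Hoxb2 level 167 CPM, beside 459 and 159.6 CPM in sarcoma cells. In the head tumour such cells held Hoxd10 at 38.6 CPM, between stroma and sarcoma cells.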
